A study of Mus musculus with 24 samples.

Results

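RNA-Seq read counts of mouse skin at embryonic day 18.5 (E18.5) were examined for 10 genes that mark the resident macrophages of this tissue: C1qa, C1qb, C1qc, Csf1r, Mrc1, Cd163, Cd68, F13a1, Pf4 and Folr2. They were chosen by name as macrophage genes and not by a measured value, although with earlier results of these data known. All 10 were found among the 54087 gene symbols of the count table and among the 17094 genes with enough counts to be tested. None of the 10 was called changed between genotypes, and the levels of the 10 varied together across replicates, with a correlation of 0.68 to 0.91 between each gene and the others.

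The study compared embryos with intact Dsg1 genes (WT, Dsg1+/+), with 1 deleted copy (HET, Dsg1+/-) and with both copies deleted (KO, Dsg1-/-). Dsg1 encodes desmoglein 1, an adhesion protein of the desmosomes that hold keratinocytes together, and the mouse carries it as a tandem cluster of Dsg1a, Dsg1b and Dsg1c. The cluster was removed by CRISPR/Cas9 editing of zygotes on a C57BL/6 background, and the line came from 1 founder, so HET and KO embryos share 1 edited allele and all 3 genotypes share the background. The edited locus lies on chromosome 18, as does Csf1r. No drug or other treatment was given in any group, and the tissue is whole skin that was flash frozen, with poly(A) RNA made into libraries that keep strand. There were 24 libraries, 8 per genotype, whose titles hold a number and follow 1 of 2 formats, called series 1 and series 2 here. Libraries with the same number and genotype were summed, which gave 5 replicates per genotype, numbered 1 to 5 by ascending title number. Whether each number stands for a separate embryo is not given, so the p-values measure the spread between these replicates.

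Macrophages of fetal skin derive largely from yolk sac and fetal liver precursors, live in the dermis next to vessels, and take up dying cells and debris. Their survival depends on the receptor encoded by Csf1r and its ligands, colony stimulating factor 1 (Csf1) and interleukin 34 (Il34), the latter made by keratinocytes. They secrete the complement starter C1q and carry scavenger and mannose receptors on their surface. In RNA from whole tissue, fewer macrophages and less RNA per macrophage cannot be told apart.

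The start regions of these genes are shown first. Whether these regions bear on the shared variation of the genes across replicates was not tested. For 8 of the 10 genes a promoter was found in RefSeq (GRCm38.p6), and C1qa and Csf1r were not matched. The 250 bases before the start were searched on both strands for GAGGAA, the core bound by the myeloid factor PU.1. On the opposite strand this motif reads TTCCTC, and capitals mark a match in either direction. C1qb, Mrc1, Cd68 and Pf4 are shown as examples with a match from different roles, and Cd163 as one without.
C1qb, chr4:136886201-136886450, minus strand: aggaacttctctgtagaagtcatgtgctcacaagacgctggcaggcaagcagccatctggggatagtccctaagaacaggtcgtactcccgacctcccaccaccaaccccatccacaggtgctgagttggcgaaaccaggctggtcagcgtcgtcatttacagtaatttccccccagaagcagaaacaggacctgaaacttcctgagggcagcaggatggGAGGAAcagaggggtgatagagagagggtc
Mrc1, chr2:14229164-14229413, plus strand: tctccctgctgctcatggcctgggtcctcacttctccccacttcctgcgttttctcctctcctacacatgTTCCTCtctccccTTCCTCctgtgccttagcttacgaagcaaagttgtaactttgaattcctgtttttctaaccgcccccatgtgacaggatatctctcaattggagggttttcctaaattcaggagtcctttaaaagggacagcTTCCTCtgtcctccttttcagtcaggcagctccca
Cd68, chr11:69666171-69666420, minus strand: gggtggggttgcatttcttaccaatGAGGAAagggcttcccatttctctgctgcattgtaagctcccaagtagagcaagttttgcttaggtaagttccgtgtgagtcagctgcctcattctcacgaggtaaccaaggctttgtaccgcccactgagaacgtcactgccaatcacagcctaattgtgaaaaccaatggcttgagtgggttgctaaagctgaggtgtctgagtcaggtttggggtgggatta
Pf4, chr5:90772185-90772434, plus strand: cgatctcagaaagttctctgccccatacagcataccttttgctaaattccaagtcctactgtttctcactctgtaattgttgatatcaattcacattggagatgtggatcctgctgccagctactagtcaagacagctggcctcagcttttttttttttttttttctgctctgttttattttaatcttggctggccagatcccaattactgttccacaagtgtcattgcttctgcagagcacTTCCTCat
Cd163, chr6:124304401-124304650, plus strand: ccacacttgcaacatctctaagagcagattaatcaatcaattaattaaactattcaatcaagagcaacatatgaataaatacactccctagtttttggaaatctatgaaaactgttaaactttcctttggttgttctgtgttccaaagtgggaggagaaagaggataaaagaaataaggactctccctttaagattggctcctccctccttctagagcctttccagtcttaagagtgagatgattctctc

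The GAGGAA core was present in 6 of the 8 genes, namely C1qb, C1qc, Mrc1, Cd68, F13a1 and Pf4. Counted by window, since F13a1 and Folr2 have 2 windows each, it was present in 6 of the 10 member windows and in 23.3% of all 32851 windows of the same length. Of the sequences shown, Mrc1 held 3 matches, C1qb, Cd68 and Pf4 held 1 each, and Cd163 held 0. The TATA box TATAAA was found in 0 of the 10 member windows and in 12.4% of all windows. The MAF half-site TGCTGAC (3.81% of all windows) and the E-box CACGTG (6.02%) were likewise found in 0 of the 10. A match is a description of letters in this window only.

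A library held 8.98 M to 20.96 M counts (M, mega) and a summed replicate 15.3 M to 33.7 M. The 3 Dsg1 genes together were at 723 to 933 CPM, counts scaled to 1 M counts of a replicate, in WT, at 371 to 492 CPM in HET and at 0.103 to 0.902 CPM in KO. The macrophage genes together took 0.0349% to 0.0622% of all counts in a replicate (median 0.0456%). The 2 libraries of number 35 (WT replicate 2) stood apart from the other 8 pairs. The series 1 library had 338 CPM of Y-linked genes and 0.275 CPM of Xist, and the series 2 library 0.157 and 574 CPM. The levels of these sex-linked genes were thus opposite in libraries summed as 1 replicate. The genotype comparisons were therefore also fitted without either of them, and no gene of the 10 was called in those fits. The levels, ratios and correlations below were not recomputed without them.

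C1qa, C1qb and C1qc encode the 3 chains of C1q, which binds dying cells and starts the classical complement pathway, and lie side by side on chromosome 4. C1qa was at 41.1, 37.0, 43.2, 40.4 and 23.7 CPM in WT replicates 1 to 5, at 41.6, 37.4, 35.8, 27.8 and 22.01 CPM in HET, and at 22.8, 44.7, 26.05, 34.5 and 42.1 CPM in KO. C1qb was at 54.4, 52.4, 61.2, 54.9 and 40.0 CPM in WT, at 59.3, 52.6, 52.3, 38.4 and 34.9 CPM in HET, and at 36.5, 60.5, 35.8, 50.3 and 62.6 CPM in KO. The same replicates were low in both genes: WT replicate 5, HET replicates 4 and 5, and KO replicates 1 and 3. C1qc ran from 27.98 CPM (KO replicate 1) to 50.7 CPM (HET replicate 1) with the same replicates low. The 3 genotypes overlapped in all 3 genes.

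Csf1r encodes the receptor that macrophages need for survival. It was at 42.6, 48.9, 54.98, 62.6 and 35.7 CPM in WT, at 59.9, 40.3, 52.7, 40.7 and 31.4 CPM in HET, and at 36.8, 66.2, 39.3, 65.7 and 45.8 CPM in KO. The lowest value was in HET and the highest in KO, and the ranges of the genotypes overlapped. Exons of Csf1r overlap those of Hmgxb3 on the opposite strand in GENCODE vM21, and the strand setting of the counting is not given, so a part of its counts is uncertain.

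Mrc1 encodes the mannose receptor CD206, Cd163 the scavenger receptor for hemoglobin bound to haptoglobin, and Cd68 a glycoprotein of the lysosome membrane. Mrc1 was at 129, 131, 134, 159.9 and 93.2 CPM in WT, at 142, 99.2, 101, 107 and 101 CPM in HET, and at 136, 150.4, 75.3, 103 and 122 CPM in KO. Cd163 was at 11.2, 13.7, 12.6, 12.9 and 6.45 CPM in WT, at 13.8, 6.14, 11.9, 8.65 and 5.599 CPM in HET, and at 11.1, 21.8, 8.001, 12.9 and 13.2 CPM in KO. Cd68 was at 10.7, 13.6, 14.1, 28.3 and 11.6 CPM in WT, at 12.8, 15.2, 11.04, 11.1 and 10.8 CPM in HET, and at 10.2, 19.3, 8.85, 13.4 and 13.2 CPM in KO. KO replicate 2 had the highest Cd163 and KO replicate 3 the lowest Mrc1 and Cd68 of all 15 replicates. WT replicate 4 stood above every other replicate in Cd68.

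F13a1 encodes the A chain of coagulation factor XIII, which crosslinks fibrin, and Pf4 the chemokine CXCL4, known from platelets and also made by fetal-derived macrophages. F13a1 was at 139, 144, 153, 167 and 97.1 CPM in WT, at 179.9, 116, 117, 125 and 115 CPM in HET, and at 124, 185, 92.0, 134 and 159 CPM in KO. Pf4 was at 53.8, 35.8, 39.04, 58.6 and 28.5 CPM in WT, at 37.9, 39.9, 36.0, 26.5 and 27.3 CPM in HET, and at 25.9, 45.96, 27.2, 35.6 and 42.2 CPM in KO. The 2 highest Pf4 values were both in WT, and the other WT replicates lay within the HET and KO values. Exons of F13a1 overlap those of Gm30489 on the opposite strand.

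Folr2 encodes folate receptor beta, a marker of resident macrophages, and was the least counted of the 10, with 8 to 63 counts per replicate. It was at 1.16, 1.16, 1.17, 1.27 and 0.403 CPM in WT, at 1.24, 0.818, 0.699, 0.716 and 0.861 CPM in HET, and at 0.902, 2.32, 0.426, 1.54 and 1.57 CPM in KO. The 3 highest values were in KO, while KO replicate 3, at 0.426 CPM, was near WT replicate 5, the lowest of all. Its exons overlap those of Gm10602 on the opposite strand, with the same uncertainty.

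**Figure D1:**
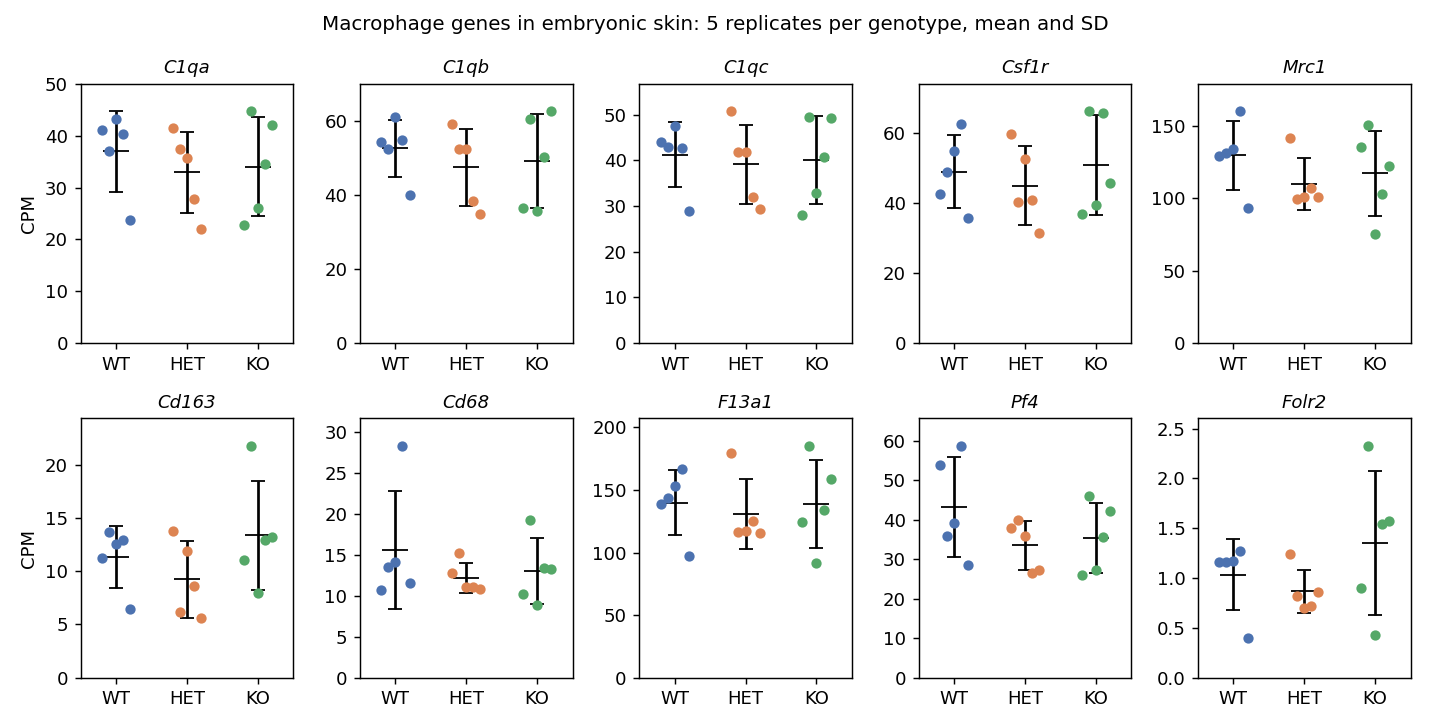
Levels of the 10 macrophage genes in CPM (vertical axes, from 0, each with its own scale) in 5 replicates each of WT, HET and KO (points), with the mean and SD (bars). In every panel the 3 genotypes overlap, and Cd68 has 1 WT replicate, at 28.3 CPM, above all others.

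Per kilobase of exon, the level in WT was highest for Pf4, at 59.8 ± 17.6 CPM per kb (SD, n = 5), followed by C1qb at 48.3 ± 7.14 and C1qa at 35.7 ± 7.53. C1qc (21.4 ± 3.71), F13a1 (20.8 ± 3.89) and Mrc1 (20.3 ± 3.74) formed a group in which neighbours did not differ beyond their spread: C1qc exceeded F13a1 in 9 of 15 replicates, and F13a1 exceeded Mrc1 in 12 of 15. Cd68 (12.4 ± 5.73) exceeded Csf1r (8.48 ± 1.82) in 12 of 15, and Pf4 exceeded C1qb in 13 of 15. Cd163 (2.08 ± 0.530 CPM per kb) and Folr2 (0.669 ± 0.230 CPM per kb) were the lowest in every replicate. The other neighbours in this order kept it in 15 of 15 replicates. Exon lengths are from GENCODE vM21, and which transcripts skin uses was not measured.

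The question of the KO vs WT comparison is whether loss of Dsg1 went with a change in these genes. A call needed an adjusted p no higher than 0.1 in edgeR's quasi-likelihood test (Benjamini-Hochberg over all genes) together with a change of at least 2-fold, or 1 on the log2 scale. None of the 10 was called, where 55 of 17094 genes, 0.322%, were. None of the 10 had an unadjusted p under 0.05, which 19.3% of all genes had, none was without overlap between the genotypes, which 3.37% of all genes were, and DESeq2 called none. The fitted log2 fold changes ran from -0.29 for Pf4 (SE 0.21, adjusted p = 0.445 in edgeR's test, the smallest of the 10) to 0.37 for Folr2 (SE 0.36, adjusted p = 0.590 in edgeR's test). Their median was -0.07 beside -0.01 over all genes tested.

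In KO vs WT, 7 of the 10 lay below 0 and 3 above it, beside 51.4% of all genes below 0. The 95% intervals bound the size of a change that these replicates leave possible. For F13a1, the most counted, the interval of the fold KO over WT was 0.758 to 1.30, and for C1qb it was 0.716 to 1.22. For Cd163 it was 0.768 to 1.80, and for Folr2 0.757 to 2.19. The intervals of 9 of the 10 lay within a 2-fold change in either direction, Folr2 being the exception. The sign was not fixed for the genes nearest 0: RLE scaling put F13a1 above 0 (main log2 value -0.01, then 0.0011), and scaling by total counts put Csf1r below 0 (0.05, then -0.01).

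In HET vs WT, none of the 10 was called, and neither was any of the 17094 genes (0%), with DESeq2 calling 0 too. At an unadjusted p under 0.05 there were 270 genes (1.58%) and none of the 10, and none of the 10 was without overlap, beside 0.374% of all genes. All 10 fitted log2 fold changes lay below 0, beside 49.1% of all genes, and they stayed below 0 under RLE scaling, total-count scaling and DESeq2. Their median was -0.20 beside 0.0024 over all genes. Cd68 had -0.36 (95% interval -0.90 to 0.17) and Pf4 -0.36 (-0.80 to 0.08), whose unadjusted p of 0.0991 was the smallest of the 10 in the edgeR test. The 10 genes were measured in the same libraries and vary together, so their 10 signs are not independent.

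In KO vs HET, none of the 10 was called, where 31 genes (0.181%) were, and DESeq2 called none of the 10. None had an unadjusted p under 0.05, beside 16.0% of all genes, and none was without overlap, beside 2.25%. All 10 fitted values lay above 0, beside 50.7% of all genes below it, with a median of 0.09, but under total-count scaling C1qa (-0.0018) and C1qc (-0.01) lay below it. Folr2 had the largest log2 difference, 0.62 (95% interval -0.16 to 1.41), followed by Cd163 at 0.53 (-0.09 to 1.15), with adjusted p = 0.416 and 0.379 in edgeR's test. Without KO replicate 2 these differences were 0.32 and 0.28, and without KO replicate 3 they were 0.85 and 0.67, with an unadjusted p under 0.05 for both. This comparison uses the same HET replicates as HET vs WT, and KO vs WT shares its WT replicates with HET vs WT, so the 3 are not independent.

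**Figure D2:**
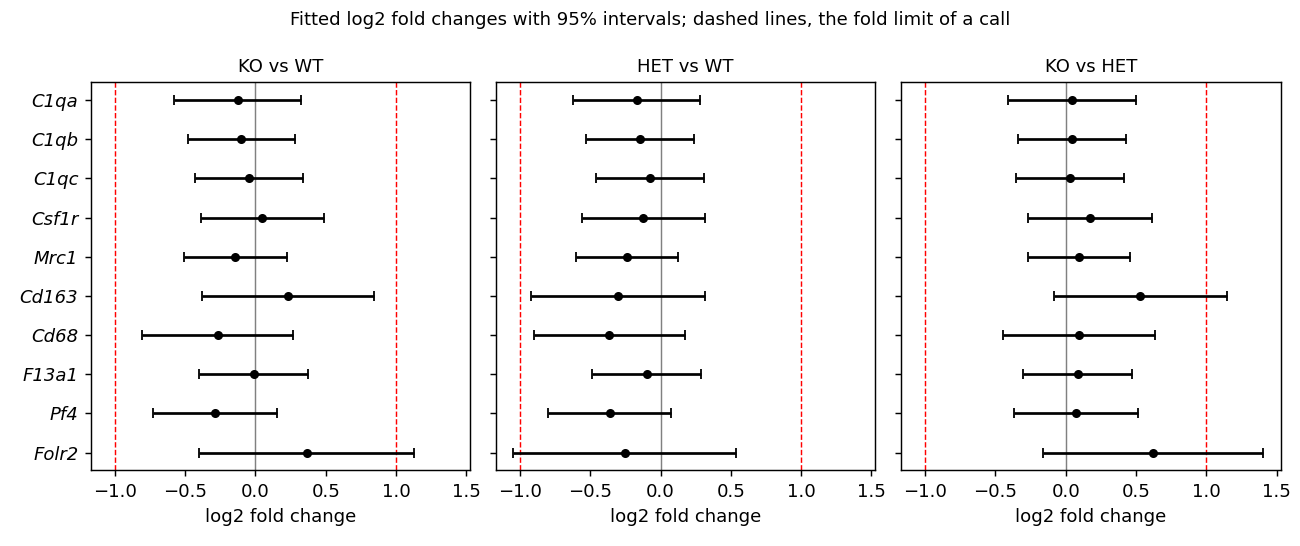
Fitted log2 fold changes (horizontal axes) of the 10 genes in KO vs WT, HET vs WT and KO vs HET, with 95% intervals (bars) and the limit of 1 in either direction that a call needs (dashed lines). Every interval includes 0, and those of Folr2 are the widest.

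The libraries of series 1 and of series 2 were also fitted apart. With series 1 alone (3 libraries per genotype) the median of the 10 was -0.38 in KO vs WT, -0.28 in HET vs WT and -0.10 in KO vs HET. In series 2 alone (5 libraries per genotype) it was -0.0071, -0.15 and 0.10. The direction of HET vs WT was therefore the same in both fits and that of KO vs HET was not. Every number of series 1 also has a library in series 2, so the fits are not independent. A direction found in both is thus not a repeat in separate replicates. C1qb and Pf4 had an unadjusted p under 0.05 in KO vs WT in series 1 alone, with edgeR adjusted p = 0.551 and 0.557. No gene of the 10 was called in either series.

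The spread within genotypes was wide. Over all 15 replicates the highest level was 1.79 times the lowest for C1qb and 1.81 times for C1qc, 3.19 times for Cd68, 3.89 times for Cd163 and 5.77 times for Folr2. Within a genotype the coefficient of variation ran from 14.8% (C1qb in WT) to 53.4% (Folr2 in KO). In the mean z-score of log2 CPM over the 10 genes, KO replicate 2 (1.36), WT replicate 4 (1.11) and HET replicate 1 (0.76) were the highest. KO replicate 3 (-1.30), WT replicate 5 (-1.21) and HET replicate 5 (-1.16) were the lowest, so each genotype supplied 1 of the top 3 and 1 of the bottom 3. This is a description of the replicates, with no test.

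**Figure D3:**
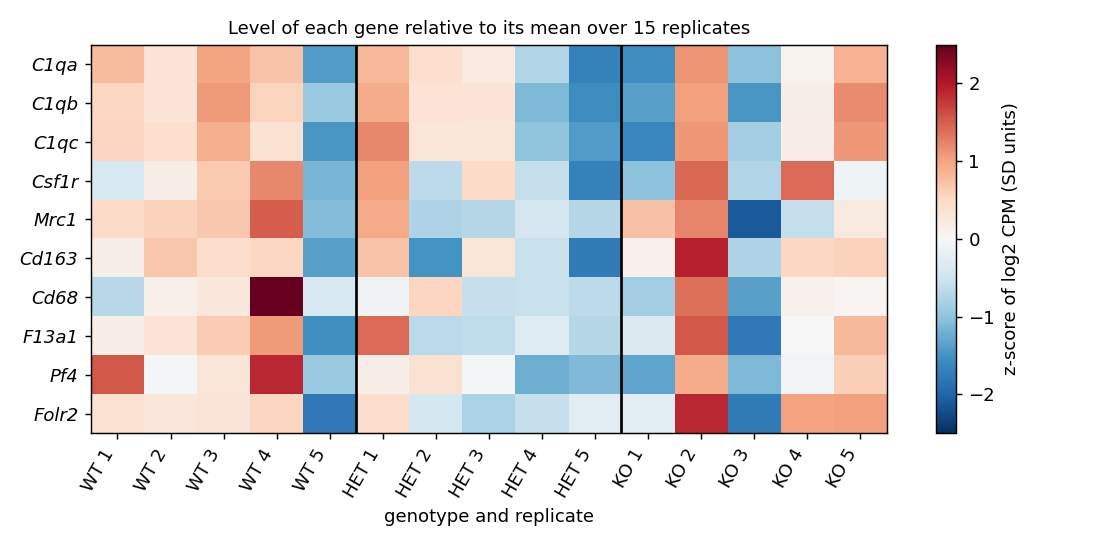
Level of each gene in each replicate as a z-score of log2 CPM over 15 replicates (color scale, in SD units), with genotypes separated by black lines. KO replicate 2 is high and KO replicate 3, WT replicate 5 and HET replicate 5 are low in most of the 10 genes.

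The 9 numbers with 2 libraries show how far 2 libraries of the same number differed. Whether the 2 were prepared separately is not given, so library making may not be part of this difference. Leaving out number 35, the SD of 1 library was 0.033 (log2) for F13a1 and 0.043 for C1qb, at most 0.117 (Pf4) for 9 of the 10 genes, and 0.466 for Folr2. The SD between the 15 replicates, pooled within genotypes, was 9.76 times that of 1 library for F13a1 and 7.43 times for C1qb. It was 3.11 times for Pf4 and 1.35 times for Folr2. The 2 SDs are unlike measures. That of 1 library used CPM scaled to total counts with none added. That between replicates used log2 CPM with 2 counts added, and 9 of the 15 replicates were sums of 2 libraries. On these measures the SD between replicates was near that of 1 library for Folr2, and for the other 9 it was not. Both differences of measure lower the ratio most where counts are few, as for Folr2. In number 35 the series 1 library was higher in 9 of the 10, as with Mrc1 (165 and 112 CPM) and Cd163 (17.4 and 11.4 CPM), and Folr2 was the exception (1.10 and 1.25 CPM).

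**Figure D4:**
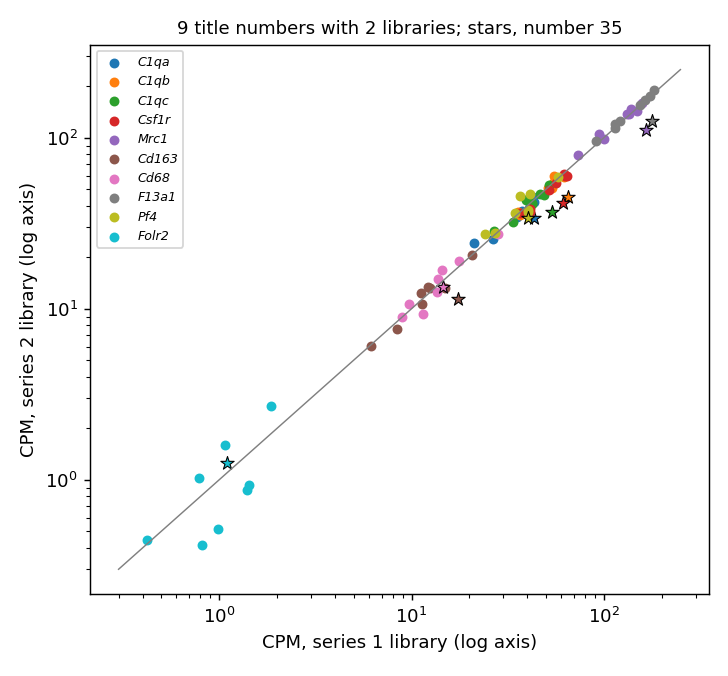
CPM of the 10 genes in the series 1 library (horizontal log axis) and the series 2 library (vertical log axis) of 9 title numbers, with equal values on the line and number 35 as stars. Most points lie on the line, Folr2 scatters around it, and most stars lie below it.

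Each gene was set against the mean z-score of the other 9 over the 15 replicates. Pearson's r was 0.91 for F13a1 (Spearman's rho 0.96), 0.90 for C1qa (0.85) and 0.89 for C1qb (0.89), and was lowest for Cd68 at 0.68 (0.68). The points of such a plot share a library and its depth, so these values are descriptions with no p. Without the 2 replicates farthest from the median score (WT replicate 5 and KO replicate 3), r was 0.87 for F13a1 and C1qa and 0.63 for Cd68 (n = 13). In the 9 replicates with 2 libraries r ran from 0.67 (Cd163) to 0.92 (F13a1), and in the 6 with 1 library from 0.51 (Cd68) to 0.99 (C1qc). Scaling by total counts left F13a1 at 0.90 and Cd68 at 0.65.

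The tightest relations were among the C1q genes, with r of 0.97 to 0.98 in the 3 pairs, beside a median of 0.70 and a range of 0.45 to 0.90 in the other 42 pairs. Next were Mrc1 with F13a1 (0.90), F13a1 with Folr2 (0.89) and C1qa with Pf4 (0.85). Cd163 with Cd68 had the lowest value (0.45). The relative level of the C1q genes and of Mrc1 with F13a1 was thus not constant: the CPM summed over the C1q genes was 0.336 of that of Mrc1 and F13a1 in KO replicate 1 and 0.613 in HET replicate 2. The mean of this ratio was 0.488 ± 0.0426 in WT, 0.501 ± 0.0989 in HET and 0.489 ± 0.0940 in KO (SD, n = 5 each). This ratio was chosen after the values were seen, and it has no test.

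Among 14626 genes with a mean of 1 CPM or more, the 10 whose log2 CPM followed the mean z-score of the macrophage genes most closely, with genotype means subtracted and n = 15, were C3ar1 (r = 0.94), Adgre1 (0.94), Islr2 (0.93), Lgmn (0.91), Gnpda1 (0.89), Unc93b1 (0.89), Tlr7 (0.88), Pld4 (0.87), Msr1 (0.87) and Ly6a (0.86). Adgre1 encodes F4/80, the classical mouse macrophage antigen, C3ar1 the receptor of the complement fragment C3a, and Msr1 a scavenger receptor. Tlr7 is an RNA sensor of endosomes, Unc93b1 carries such sensors there, and Lgmn is a lysosomal protease. Adgre1 was at 21.5, 26.7, 30.1, 28.5 and 17.5 CPM in WT, at 27.9, 20.6, 19.98, 21.4 and 16.2 CPM in HET, and at 18.1, 34.8, 14.5, 23.7 and 27.3 CPM in KO. Its highest replicate was again KO replicate 2 and its lowest KO replicate 3. These genes were ranked on the same libraries, so their likeness is a description.

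By list, the median r with the score was 0.64 for 21 other macrophage genes, 0.54 for 18 genes of all leukocytes or myeloid cells and 0.51 for 12 lysosome genes. It was -0.0025 over all genes ranked, 0.03 for 8 keratinocyte genes, -0.04 for 8 fibroblast genes, -0.09 for 8 neutrophil genes and -0.28 for 8 mast cell genes. Lists of related cells lay between, with 0.44 for 4 monocyte genes, 0.37 for 5 Langerhans and dendritic cell genes and 0.33 for 11 complement genes. Single genes of other lists also reached high values, as the endothelial gene Tek with 0.72. The list of other macrophage genes had the highest median, but r within it ran from -0.16 to 0.94. The median was only 0.11 for 5 inflammatory macrophage genes and 0.19 for 6 alternatively activated macrophage genes. The lists were chosen with earlier results of these data known. These medians therefore describe the label of the 10 as macrophage genes and do not test it.

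The other macrophage genes were compared in the same fit. Of 23 tested in KO vs WT, 0 passed an adjusted p of 0.1 or below (1.15% of all genes did), and the median log2 fold change was -0.12. Below 0, 4 had an unadjusted p under 0.05 and are named after their values were seen: Maf (-0.21), Dab2 (-0.29), Lyve1 (-0.35) and Gas6 (-0.24), with edgeR adjusted p from 0.183 to 0.256. Over all genes, 19.3% had an unadjusted p under 0.05 in either direction. The defining markers Adgre1 (-0.07), Mertk (0.18) and Fcgr1 (0.09) had adjusted p of 0.328 or above in edgeR's test. In HET vs WT and KO vs HET, 0 of the 23 passed an adjusted p of 0.1 or below (0% and 0.333% of all genes). At an unadjusted p under 0.05 were 0 and 3 of them, beside 1.58% and 16.0% of all genes.

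Of 18 genes of leukocytes or myeloid cells, 0 passed the adjusted p in KO vs WT, with a median of -0.13. The pan-leukocyte gene Ptprc (CD45) had 0.07 and Spi1, which encodes PU.1, had -0.02. The signaling adaptor gene Tyrobp had -0.35. At an unadjusted p under 0.05, which 19.3% of all genes had, were Tyrobp, Csf2ra (-0.25) and Itgb2 (0.62). The last 2 are named after their values were seen, and edgeR adjusted p ran from 0.178 to 0.197. Csf2ra was lower in KO with no overlap, beside 3.37% of all genes without overlap. Of the 2 ligands of the Csf1r receptor, Csf1 was at 37.7 CPM in KO and 43.6 CPM in WT (log2 fold change -0.21, 95% interval -0.48 to 0.07). Il34 was at 37.1 CPM in KO and 36.4 CPM in WT (0.03, -0.18 to 0.24). Neither ligand passed the test in any of the 3 comparisons.

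Of 12 lysosome genes, 0 passed the adjusted p in KO vs WT, with a median of 0.08. Of 11 complement genes tested, 0 passed as well. C3 and Cfd, named after their values were seen, had the largest log2 fold changes of that list, 2.46 and 2.98, with edgeR adjusted p = 0.129 and 0.183. C3 ran from 26.9 to 309.8 CPM in KO and from 7.96 to 51.0 CPM in WT, with KO replicates 2 and 4 highest, so the genotypes overlapped. The first component genes C1ra (0.23) and C1s1 (0.11) and the C1q genes had far smaller values.

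Lists of neutrophil, monocyte and inflammatory macrophage genes were set beside the 10. In KO vs WT the median log2 fold change was 1.38 for 10 neutrophil genes, 0.63 for 8 monocyte genes and 0.35 for 9 genes of inflammatory macrophages, beside -0.07 for the 10. The summed levels did not follow the medians in the last 2 lists: the monocyte list had a median of 33.7 CPM in KO and 34.4 CPM in WT, and the inflammatory macrophage list 12.8 CPM in KO and 13.8 CPM in WT, with 47.5 CPM in KO replicate 4. Neutrophil genes Cxcr2 and Lcn2 were called higher in KO, 2 of 10 where 0.135% of all genes were called higher. Cxcr2, a chemokine receptor, was at 0.571 to 3.70 CPM in KO and 0.190 to 0.473 CPM in WT (log2 fold change 2.31, adjusted p = 0.0891 in edgeR's test). Lcn2, which encodes an iron-binding lipocalin that keratinocytes also make, was at 1.43 to 12.03 CPM in KO and 0.811 to 1.82 CPM in WT (2.03, adjusted p = 0.0978 in edgeR's test). These calls did not hold in every fit: without KO replicate 4, Cxcr2 had 1.67 (edgeR adjusted p = 0.180) and Lcn2 1.37 (0.206), and they were called in 6 and 5 of the 15 fits that left out a replicate. S100a8 (1.71) and S100a9 (1.73) missed the threshold with edgeR adjusted p = 0.102 and 0.109. The paper names S100A8 as a keratinocyte gene raised in patients with Dsg1 mutations and reports S100A9 staining in the epidermis. Neither gene is thus particular to neutrophils. The neutrophil marker Ly6g was near 0 in both genotypes, at 0.0429 CPM in KO and 0.0402 CPM in WT.

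KO replicate 4 had the highest Cxcr2, Lcn2, C3 and S100a8 of all 15 replicates, while its score over the macrophage genes was 0.28, the eighth of 15. Of 9 inflammatory macrophage genes and 8 monocyte genes tested, 0 passed the adjusted p. Il1b (1.46) and Ccl2 (1.10), named after their values were seen, had edgeR adjusted p = 0.175 and 0.237. Tnf (-0.80), Il6 (-0.22) and Cxcl10 (-0.09) of the same list lay below 0. The monocyte markers Ccr2 (-0.0024) and Plac8 (0.0047) lay at 0. Whether the difference between these lists and the 10 genes exceeds their spread was not tested.

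**Figure D5:**
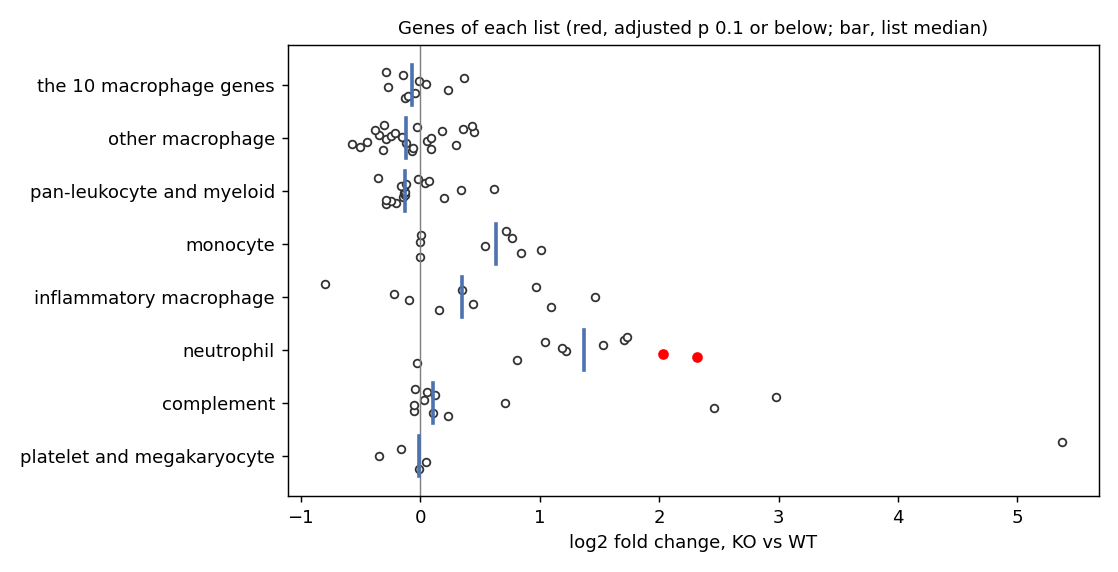
Log2 fold changes in KO vs WT (horizontal axis) of the tested genes of 8 lists (circles; filled red at an adjusted p of 0.1 or below), with the list median (bar). The macrophage genes lie around 0, the neutrophil list has a median of 1.38 with Cxcr2 and Lcn2 in red, and the platelet gene at the far right is Ppbp.

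Pf4 is also a platelet gene and lies between Ppbp and Cxcl3 on chromosome 5, so markers of platelets were read beside it. Ppbp, another platelet chemokine, was at 0.541, 1.25, 0.638, 248 and 0.524 CPM in KO replicates 1 to 5 and at 0.601 to 3.12 CPM in WT. In KO replicate 4, where Ppbp was at 248 CPM, Pf4 was at 35.6 CPM, within the range of the other replicates. The platelet glycoprotein gene Gp9 was at 0.0476 to 0.554 CPM over all 15 replicates, and Itga2b at 4.68 to 11.8 CPM. Itga2b was lower in KO than in WT with no overlap (log2 fold change -0.35, adjusted p = 0.281 in edgeR's test). Over all genes, 3.37% had no overlap. Of 12 platelet genes 5 had enough counts to be tested and 0 passed the adjusted p in KO vs WT, with 3 below 0 and 2 above it. The r of Pf4 with the score of the other 9 genes was 0.81.

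Markers of other cells of skin were read in the same replicates. Cd207, the defining gene of Langerhans cells, had 3 counts in all 15 replicates together, and of 8 Langerhans and dendritic cell genes tested 1 had an unadjusted p under 0.05 in KO vs WT, beside 19.3% of all genes. This was the MHC class II gene H2-Ab1, named after its values were seen, with a log2 fold change of -0.46 (adjusted p = 0.168 in edgeR's test) and no overlap between KO and WT. Over all genes, 3.37% had no overlap. The summed level of 8 mast cell genes was 745 to 1643 CPM in KO and 1202 to 1913 CPM in WT, and that of 8 fibroblast genes 14932 to 29920 CPM and 22797 to 37005 CPM. The 8 keratinocyte genes were at 71136 to 100712 CPM in KO and 57753 to 79161 CPM in WT. Fits with the erythroid, fibroblast or skeletal muscle level as a covariate called none of the 10 macrophage genes.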

How the data were processed

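Skin RNA of 24 libraries was measured, 8 per genotype. The authors deposited raw read counts per gene symbol. The submitters' processing notes name STAR, HTSeq and the build hg19 (human), whereas the symbols are mouse, so build and annotation are not settled. Versions and strand setting are not given in the sources used here.

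Libraries sharing a title number and genotype were summed (15 replicates of 15.3 M to 33.7 M counts). Genes passing filterByExpr (17094 of 54087, holding 99.9% of counts) were tested with edgeR 4.0.16 (R 4.3.3), TMM factors, robust quasi-likelihood and all genotypes in one fit. A call needed a Benjamini-Hochberg adjusted p no higher than 0.1, over all genes, and at least a 2-fold change. CPM were scaled to TMM-adjusted library sizes, and log2 CPM had 2 counts added. Intervals are 95% intervals of the fit.

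The text names the 10 genes, genes called on a list, the first 3 genes of a list where a result turns on them, and the 10 genes most like the score. Others are marked as chosen after their values were seen. Of the other macrophage genes, 1 is not reported here. The members and lists were chosen with earlier results of these data known. Exon lengths and neighbours came from GENCODE vM21, and promoters from RefSeq GRCm38.p6. On simulated counts with 200 genes changed in KO, edgeR recovered 196 with 10 false calls over 16914 genes, and DESeq2 1.42.0 recovered 197 with 16. All changed genes were given the same size of change, up or down, which was larger than any fitted for the 10 genes. They were drawn only from genes above a mean CPM that Folr2 did not reach. Whether changes as small as those fitted for the 10 genes would be recovered was not tested. Alternatives were DESeq2, RLE and total-count scaling, other filters and thresholds, subsets of libraries, covariates and leaving out each replicate.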

Additional observations from a re-analysis of the deposited data

Results flagged for a closer look

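In groups of 5 replicates, a value was set apart when its gap to the nearest value exceeded 0.71 of the group's range. For independent groups of normally distributed values, chance sets apart about 1 in 20, so 4.35 of the 87 groups examined, and 12 were. These groups share replicates and hold genes that vary together, and normality was not checked, so the comparison of these counts is not a test. Among the macrophage genes in WT, C1qc (gap 0.732 of the range) and Folr2 (0.869) were low in replicate 5, and Cd68 was high in replicate 4 (0.805). In HET, Mrc1 (0.82) and F13a1 (0.847) were high in replicate 1. Among the gene lists in WT, the summed alternatively activated macrophage genes were low in replicate 5 (0.72) and the platelet genes high in replicate 4 (0.743). In HET replicate 3, the complement genes (0.834) and the neutrophil genes (0.733) were high. In KO replicate 4, the inflammatory macrophage genes (0.737) and the platelet genes (0.951), of which Ppbp is one, were high. In KO replicate 2, the keratinocyte genes were high (0.732), in the replicate that had the highest score over the macrophage genes. No cause of these values was tested.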

How the results depend on the processing

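No gene of the 10 was called in any comparison under the 34 alternatives, 15 that leave out a replicate and 19 others. No paired analysis was possible because the title numbers are not shared between genotypes. Each median of the 10 moved by less than the pooled SD within genotypes of the mean log2 CPM of the 10 genes (0.346), the widest move being in series 1 alone, from -0.07 to -0.38 in KO vs WT. This SD is larger than the size of each median, so staying below it does not show that a median is stable. In KO vs HET the median changed sign in series 1 alone, from 0.09 to -0.10. Log2 values that changed sign were as follows, and the cause was not tested. In KO vs WT, F13a1 (otherwise -0.01) was 0.0011 with DESeq2 and with RLE factors, 0.034 in series 2 alone, 0.029 without the series 1 library of number 35, and 0.00023, 0.00040, 0.075 and 0.061 with both-series presence, Y-linked, erythroid and fibroblast covariates. Csf1r (otherwise 0.05) was -0.013 with total counts, -0.011 without the series 2 library of number 35, -0.30 in series 1 alone, -0.052 with 24 libraries and -0.0086 with the muscle covariate. Series 1 alone also gave Cd163 -0.011 and Folr2 -0.30. C1qc (otherwise -0.04) was 0.020 in series 2 alone, 0.0039 without the series 1 library of number 35 and 0.011 with the erythroid covariate. In HET vs WT, C1qc was 0.0065 in series 2 alone. In KO vs HET, total counts gave C1qa -0.0018 and C1qc -0.015. Series 1 alone gave C1qa -0.36, C1qb -0.36, C1qc -0.29, Csf1r -0.11, Cd68 -0.087, F13a1 -0.058 and Pf4 -0.24. The 24 libraries gave C1qa -0.061, C1qb -0.062, C1qc -0.081 and Pf4 -0.022. The fibroblast covariate gave C1qc -0.0029 and the muscle covariate Cd68 -0.020.

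Leaving out each replicate in turn also changed signs. In KO vs WT, C1qc ran from -0.15 to 0.062, Csf1r from -0.065 to 0.15, Cd163 from -0.015 (without KO replicate 2) to 0.37, Cd68 from -0.46 to 0.056 (without WT replicate 4) and F13a1 from -0.14 to 0.10. In HET vs WT, C1qc ran from -0.19 to 0.012. In KO vs HET, C1qa ran from -0.077 to 0.16, C1qb from -0.055 to 0.14, C1qc from -0.059 to 0.14, Mrc1 from -0.014 to 0.22, Cd68 from -0.095 to 0.20, F13a1 from -0.043 to 0.23 and Pf4 from -0.039 to 0.17. In KO vs HET, an unadjusted p under 0.05 was also reached by Cd163 without HET replicate 1 (0.73) and by Folr2 with the erythroid covariate (0.87). In HET vs WT, Pf4 reached it without WT replicate 5 (-0.48). The median of the 10 ran from -0.16 to 0.012 in KO vs WT, from -0.31 to -0.11 in HET vs WT and from -0.040 to 0.20 in KO vs HET. Folr2, with 418 counts in all, is limited by depth and was not fitted where a mean of at least 50 counts was required.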
